A study of Homo sapiens with 6 samples.

Results

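CD274 and PDCD1LG2, the genes of the checkpoint ligands PD-L1 and PD-L2, lie side by side on the short arm of chromosome 9 (9p24), and are described here with 6 genes of the same chromosome band: PLGRKT, RIC1, ERMP1, CDC37L1, AK3 and RCL1. These 8 genes of the 61541 listed in each library were picked by name, with their earlier values in this same comparison known. They were therefore selected on the contrast that is described. Their differences between groups are given as a description, and no test result for them is read as evidence.

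Messenger RNA was measured in RCC4, an established human cell line from a clear cell renal carcinoma, which has lost the function of the tumour suppressor VHL. The untreated group had 3 biological replicates that received no cytokine. The treated group had 3 biological replicates exposed for 24 h to interferon gamma (IFNγ, 1000 U/mL) and tumour necrosis factor (TNF, 25 ng/mL) together, so the effect of either cytokine alone cannot be told apart. Each replicate combined 3 flasks of cells, all from 1 line, and all grown in the same serum-supplemented medium. From each, 500 ng of poly(A) RNA was read as native RNA on its own nanopore flow cell, and the comparison asks how expression in these cells differs after cytokine exposure.

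PD-L1 and PD-L2 are transmembrane proteins of the B7 family that bind the receptor PD-1 on T cells and dampen T cell activity. IFNγ acts through its receptor and the kinases JAK1 and JAK2, whose signal reaches gamma-activated sites (GAS) in DNA and induces IRF1, a factor that binds interferon-stimulated response elements (ISRE). TNF acts largely through NF-kappaB. In renal and other carcinomas PD-L1 on the tumour cell is a target of antibody therapy, and the neighbouring genes on 9p24 are often gained or lost together with it in tumours.

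The promoter sequence of CD274 is shown because it holds letters that resemble both kinds of interferon element, and that of PLGRKT because it is the nearest neighbour and starts in the opposite direction. Sequences are from a set of RefSeq promoter windows on GRCh38.p14 that covers 6 of the 8 genes. PDCD1LG2 and CDC37L1 have no window in the set used here, so neither was searched for motifs. The stretch before the start of the CD274 gene in the deposited annotation, chr9:5450292-5450502 on the plus strand, and that before PLGRKT, chr9:5437926-5438175 read on the minus strand, are written 5′ to 3′. Capitals in CD274 mark first the run covered by the ISRE-like matches and then the GAS match, and PLGRKT has no capitals because no searched motif was found in it.
CD274: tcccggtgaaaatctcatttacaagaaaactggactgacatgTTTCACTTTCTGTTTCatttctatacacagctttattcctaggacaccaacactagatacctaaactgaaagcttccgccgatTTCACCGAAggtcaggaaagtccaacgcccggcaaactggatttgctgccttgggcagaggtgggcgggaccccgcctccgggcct
PLGRKT: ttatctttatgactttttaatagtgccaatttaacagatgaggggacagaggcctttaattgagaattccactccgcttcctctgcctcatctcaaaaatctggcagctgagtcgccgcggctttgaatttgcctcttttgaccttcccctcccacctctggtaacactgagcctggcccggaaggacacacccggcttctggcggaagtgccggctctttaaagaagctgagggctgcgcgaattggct

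The ISRE-like pattern searched was GAAANNGAAA, on both strands. It was found in CD274 at 2 overlapping positions on the minus strand, chr9:5450334-5450343 and chr9:5450340-5450349, which begin 208 and 202 bases before the RefSeq start site. Among 35116 RefSeq windows of 300 bases (250 before and 50 after the start), 3.57% held this pattern. Of the 6 genes searched, only CD274 did. The GAS pattern TTCNNNGAA reads the same on both strands and was found in CD274 at chr9:5450417-5450425, 125 bases before the RefSeq start. It was present in 7.66% of all windows and, among the other genes searched, in 1 of the 2 windows of AK3. The NF-kappaB consensus (11.3% of all windows) was found in none of the windows of the genes searched. Among them the hypoxia response core ACGTG or GCGTG (48.4% of all windows) was found in RCL1 and RIC1. A match here is a match of letters, and the absence of one says only that these letters are not in the window.

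Library totals ran from 3626000 to 4406296 counts, and 14798 to 15604 genes per library had a count. Levels are given as CPM, that is, counts relative to a library size adjusted by TMM normalisation. In these units 3 counts, the upper limit behind a count of 0, were worth 0.674 to 0.863 CPM. All 9 markers of renal carcinoma epithelium had counts, with a summed level of 1778 to 2845 CPM in untreated and 2277 to 3587 CPM in treated libraries. Most of that sum was KRT8 and KRT18, with untreated means of 1342 and 773 CPM. The untreated means of the others ran from 5.01 CPM (EGLN3) to 144.7 CPM (PAX8). The 4 endothelial markers and 7 of 10 immune markers (among them PTPRC, CD3E, CD3D, MS4A1, CD163 and TYROBP) were at 0 counts in all 6 libraries. The 3 other immune markers summed to at most 0.261 CPM in untreated and 0.449 to 3.98 CPM in treated libraries, where the most counts for one of them in a library was 7. Among 5 fibroblast markers COL1A2, DCN and LUM were at 0, and COL1A1 with PDGFRB summed to 54.6 to 73.9 CPM in untreated and 27.3 to 48.9 CPM in treated libraries. Within these lists PDGFRB (10.3 to 2.71 CPM, edgeR adjusted p = 0.0049) and the renal marker PAX8 (144.7 to 83.8 CPM, edgeR adjusted p = 0.0316) were lower in treated libraries. VEGFA was higher (21.1 to 62.9 CPM, edgeR adjusted p = 0.00302). The part of the marker signal in the results was not tested. Untreated replicate 3 stood apart from the other untreated libraries over genes at large as well as in several of the genes described. A value without it is given where the log2 fold change turned or moved by over 1.5 times. Because the samples are bulk RNA, a change in the number of cells that express a gene and a change in RNA per cell cannot be told apart.

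CD274 (ENSG00000120217, chr9:5450503-5470566, plus strand) encodes PD-L1. Untreated replicates 1, 2 and 3 had 72, 65 and 44 counts, and treated replicates 1, 2 and 3 had 201, 374 and 246. As levels these were 18.8, 16.7 and 9.95 CPM untreated against 57.8, 84.0 and 69.9 CPM treated. The groups did not overlap, with the lowest untreated value in replicate 3 and the highest treated value in replicate 2. Mean levels were 15.1 ± 4.62 CPM and 70.6 ± 13.1 CPM (SD, n = 3 each). The fitted ratio was 4.67-fold, a log2 fold change of 2.22 (SE 0.28). Leaving out untreated replicate 3 gave 1.98.

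PDCD1LG2 (ENSG00000197646, chr9:5510531-5571282, plus strand) encodes PD-L2 and starts 60 kb from the start of CD274. Counts were 14, 16 and 17 in the untreated replicates against 102, 219 and 127 after treatment. In CPM the untreated replicates were at 3.65, 4.12 and 3.84 and the treated at 29.3, 49.2 and 36.1. All 3 untreated libraries lay close together, but at 14 to 17 counts each, so their small SD does not show the counting error. Every treated library was well above the untreated ones. The mean level was 3.87 ± 0.235 CPM untreated and 38.2 ± 10.1 CPM treated (SD, n = 3 each). The fitted ratio was 9.81-fold, a log2 fold change of 3.29 (SE 0.29), which was the largest difference among the 8 genes.

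The make-up of the ligand pair differed between groups as well. PDCD1LG2 held 16.3%, 19.8% and 27.9% of the counts of both ligand genes in untreated replicates 1, 2 and 3, with 95% Wilson intervals of 9.95 to 25.5, 12.5 to 29.7 and 18.2 to 40.2. In treated replicates 1, 2 and 3 its share was 33.7%, 36.9% and 34.0%, with intervals of 28.6 to 39.2, 33.1 to 40.9 and 29.4 to 39.0. The groups did not overlap, but the interval of untreated replicate 3, from 61 counts of the pair, spanned all 3 treated shares. The intervals cover counting error only. Means were 21.3% ± 5.95 untreated and 34.9% ± 1.79 treated (SD, n = 3 each), and CD274 was the larger part of the pair in every library. As this share comes from the same contrast that chose the genes, it is a description.

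**Figure D1:**
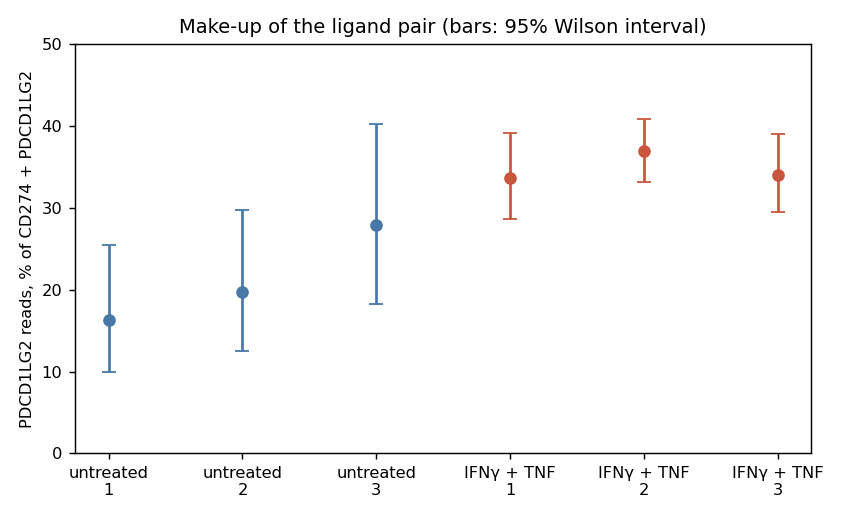
PDCD1LG2 counts as a percentage of CD274 plus PDCD1LG2 counts (y axis) in each library (x axis), with 95% Wilson intervals as bars. The 3 treated points lie between 33.7% and 36.9% and the 3 untreated between 16.3% and 27.9%.

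PLGRKT (ENSG00000107020, chr9:5357971-5437925, minus strand) encodes a plasminogen receptor and starts 12.6 kb from the start of CD274, on the opposite strand. Untreated replicates held 255, 250 and 203 counts, and treated replicates 335, 538 and 344. Its level was 66.5, 64.3 and 45.9 CPM untreated and 96.4, 120.8 and 97.7 CPM treated. The groups did not overlap, and again untreated replicate 3 was lowest and treated replicate 2 highest. Means were 58.9 ± 11.3 and 105.0 ± 13.8 CPM (SD, n = 3 each). The fitted ratio was 1.78-fold, a log2 fold change of 0.83 (SE 0.21), or 0.67 without untreated replicate 3.

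**Figure D2:**
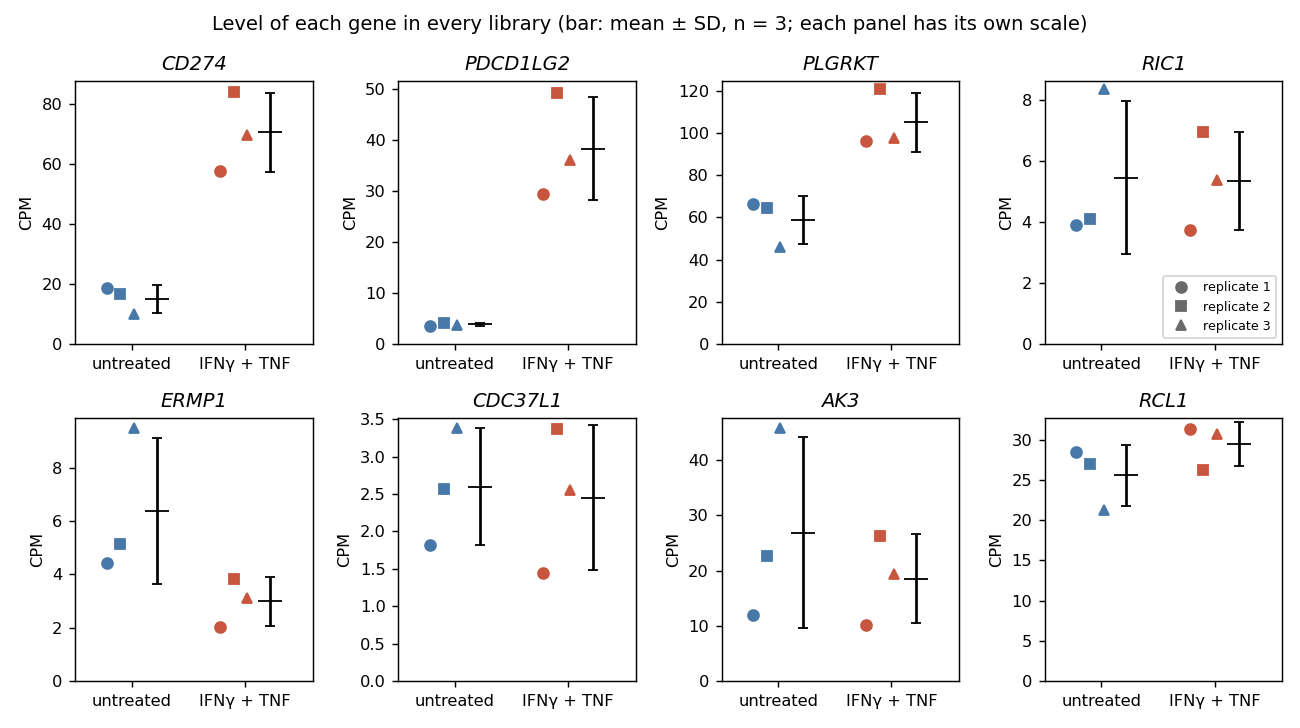
Level in CPM (y axis, from 0, own scale per panel) of each of the 8 genes in untreated (blue) and IFNγ plus TNF treated (red) libraries, with the replicate as the symbol shape and the mean ± SD (n = 3) as a black bar. CD274, PDCD1LG2 and PLGRKT show treated points all above the untreated ones, and ERMP1 the opposite.

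On the other side of the ligand pair lie RIC1 and ERMP1. RIC1 (ENSG00000107036, chr9:5629025-5776557, plus strand), a subunit of the exchange factor for the Golgi GTPase RAB6, had 15, 16 and 37 counts untreated and 13, 31 and 19 treated. Its level was 3.91, 4.12 and 8.37 CPM untreated and 3.74, 6.96 and 5.40 CPM treated, so the groups overlapped. Means were 5.46 ± 2.51 and 5.37 ± 1.61 CPM (SD, n = 3 each), and the fitted log2 fold change was -0.03 (SE 0.42). Without untreated replicate 3, which held the highest value, it was 0.42.

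ERMP1 (ENSG00000099219, chr9:5749832-5879537, minus strand) encodes a metallopeptidase of the endoplasmic reticulum. It had 17, 20 and 42 counts untreated and 7, 17 and 11 treated, or 4.43, 5.15 and 9.50 CPM against 2.01, 3.82 and 3.12 CPM. Every treated value was below every untreated one, and untreated replicate 3 stood at the top. Means were 6.36 ± 2.74 and 2.99 ± 0.910 CPM (SD, n = 3 each), and the log2 fold change of -1.08 (SE 0.43) came to -0.67 without that library. RIC1 and ERMP1 overlap on opposite strands. Antisense exons of other genes cover 4.06% of the exon bases of RIC1 and 1.87% of those of ERMP1, and counting was by strand.

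CDC37L1, AK3 and RCL1 lie on the far side of PLGRKT, 657.6 to 770.9 kb from the start of CD274. CDC37L1 (ENSG00000106993, chr9:4679559-4708399, plus strand), an HSP90 co-chaperone, had 7, 10 and 15 counts untreated and 5, 15 and 9 treated. These counts gave 1.82, 2.57 and 3.39 CPM untreated and 1.44, 3.37 and 2.56 CPM treated, overlapping groups with means of 2.60 ± 0.784 and 2.45 ± 0.969 CPM (SD, n = 3 each). Its log2 fold change was -0.07 (SE 0.46), and 0.17 without untreated replicate 3. At 5 to 15 counts per library, a difference of this size was not detectable.

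AK3 (ENSG00000147853, chr9:4709556-4742043, minus strand) encodes the adenylate kinase of the mitochondrial matrix. It had 46, 88 and 203 counts untreated and 35, 117 and 68 treated. Its level ran from 12.0 and 22.6 to 45.9 CPM in untreated replicates 1, 2 and 3 and was 10.1, 26.3 and 19.3 CPM in the treated. The spread among the untreated libraries was the widest of the 8 genes, 26.8 ± 17.3 CPM against 18.6 ± 8.13 CPM treated (SD, n = 3 each). The log2 fold change of -0.53 (SE 0.49) turned to 0.10 without untreated replicate 3.

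RCL1 (ENSG00000120158, chr9:4792944-4885917, plus strand), which acts in ribosomal RNA processing, was the steadiest of the neighbours. It had 109, 105 and 94 counts untreated and 109, 117 and 108 treated, or 28.4, 27.0 and 21.3 CPM against 31.4, 26.3 and 30.7 CPM. The groups overlapped, at 25.6 ± 3.80 and 29.4 ± 2.76 CPM (SD, n = 3 each), and the fitted log2 fold change was 0.20 (SE 0.21), or 0.08 without untreated replicate 3.

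The comparison over all genes was fitted with edgeR's quasi-likelihood F test with Benjamini-Hochberg adjustment. Of 10067 genes tested, 562 (5.58%) were higher and 257 (2.55%) lower in treated libraries at an adjusted p under 0.05. All 8 genes passed the filter on low counts, and 3 of them (CD274, PDCD1LG2 and PLGRKT) were past that threshold as higher. None was as lower, also by DESeq2 and limma voom, and ERMP1 alone had an unadjusted edgeR p under 0.05. Groups did not overlap, with treated higher, in 13.9% of all tested genes and in the same 3 of these 8, and with treated lower in 11.9% and in ERMP1. Because this contrast chose the genes, nothing is read from these counts. The median log2 fold change was 0.09 over the 8 genes and -0.03 over all genes tested.

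**Figure D3:**
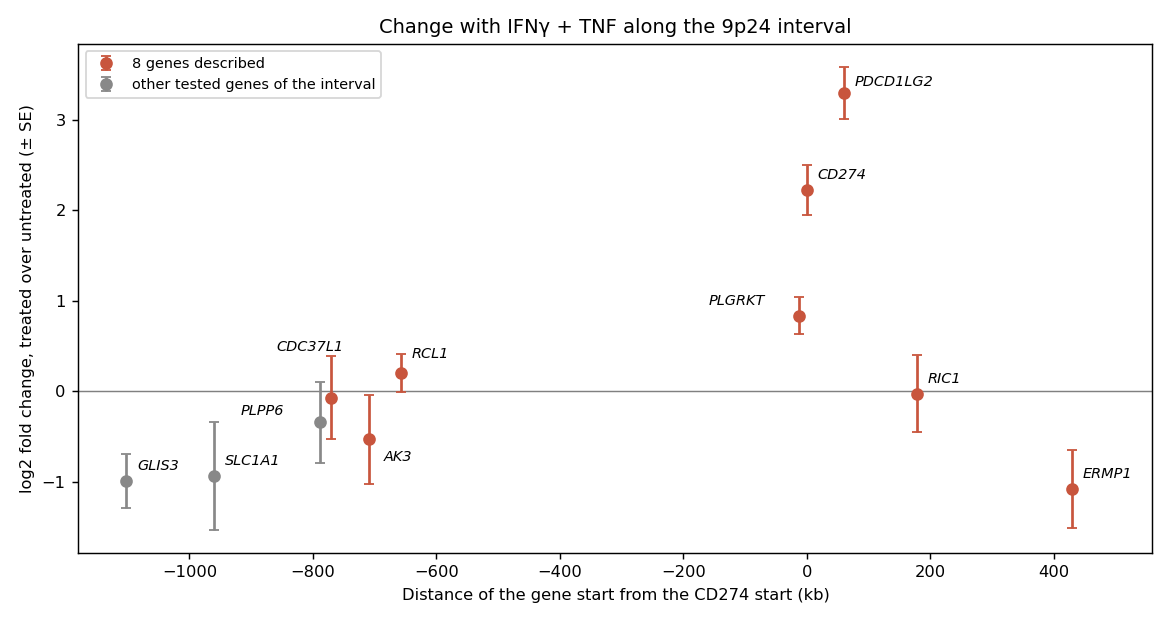
Log2 fold change of treated over untreated libraries (y axis, bars ± SE) against the distance of each gene's start from the CD274 start in kb (x axis), for the 8 genes (red) and the 3 other tested genes of the interval (grey). The values of 0.83, 2.22 and 3.29 belong to 3 adjacent genes, PLGRKT, CD274 and PDCD1LG2, and the other genes drawn lie between -1.08 and 0.20. JAK2, which also lies in the interval, did not pass the main filter and is not drawn. Its log2 fold change was 2.42 when every gene with a count was tested.

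Levels of the 8 genes were set against each other in CPM divided by exonic length. Each direct RNA read comes from 1 molecule, so the undivided CPM is given beside it for the ligand genes and ERMP1. Per kb, PLGRKT had the highest level in both groups, 38.2 CPM per kb untreated and 68.1 treated. CD274 had rank 4 of the 8 in untreated cells with 3.69 ± 1.12 CPM per kb, below RCL1 (6.17) and AK3 (6.11), and rank 2 in treated cells with 17.2 ± 3.19 (SD, n = 3 each). PDCD1LG2 had rank 5 with 1.59 ± 0.0967 CPM per kb untreated and rank 3 with 15.7 ± 4.15 treated (SD, n = 3 each). The treated means of CD274 and PDCD1LG2 per kb differed by less than their SD between libraries. Both genes were measured in the same libraries, so this SD includes any shift shared by a library. The difference within libraries was not tested. The untreated levels of the pair did not overlap in mean ± SD. Without the division the treated levels of the pair, 70.6 ± 13.1 and 38.2 ± 10.1 CPM (SD, n = 3 each), did not overlap in mean ± SD either, so the closeness holds only per kb. RCL1 and AK3 also lay within their spread of each other in untreated libraries. CDC37L1 (0.657 untreated, 0.621 treated), RIC1 (0.636, 0.625) and ERMP1 (0.417, 0.196) were lowest on this scale in both groups. The means of CDC37L1 and RIC1 differed by less than their SD between libraries. ERMP1 has 15257 exonic bases, and without the division it had rank 5 untreated (6.36 CPM) and rank 7 treated (2.99 CPM).

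The treated libraries ordered most of the 8 genes in the same direction, and the untreated libraries ordered most of them in opposite directions. Treated replicate 1 had the lowest and treated replicate 2 the highest treated level in 7 of the 8 genes, all except RCL1, against 36.4% and 33.9% of all tested genes. Untreated replicate 3 was the highest untreated library in RIC1, ERMP1, CDC37L1 and AK3 and the lowest in CD274, PLGRKT and RCL1, as it was in 45.2% and 41.3% of all tested genes. In each of these named genes untreated replicate 2 lay between replicates 1 and 3. Leaving out untreated replicate 3 changed the sign of the log2 fold change in RIC1, CDC37L1 and AK3. The part of a library effect in these values was not tested.

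**Figure D4:**
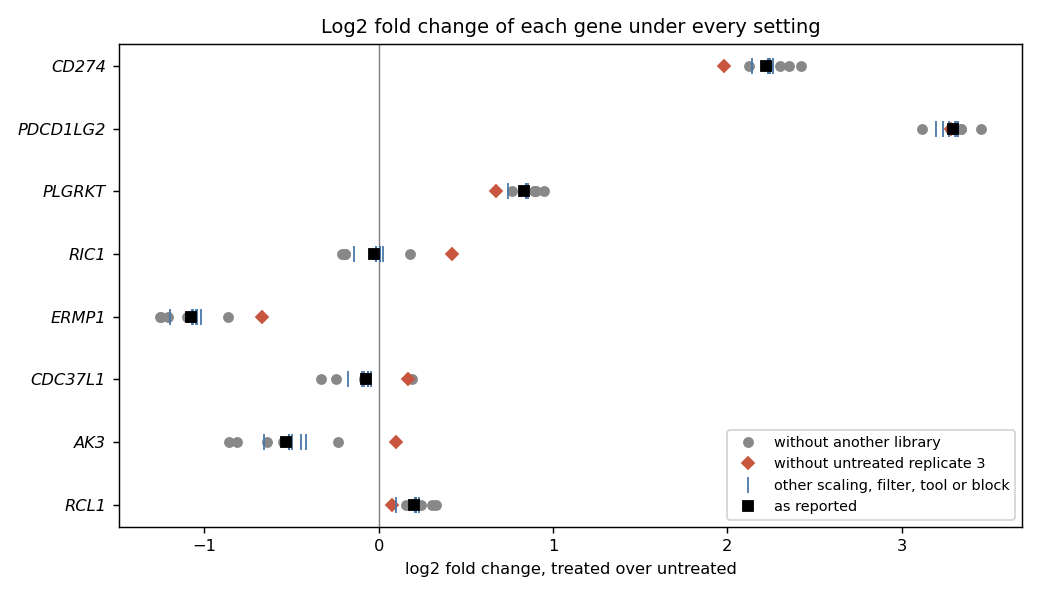
Log2 fold change of treated over untreated libraries (x axis) for each of the 8 genes (y axis) as reported (black), without untreated replicate 3 (red), without each other library (grey) and under other scalings, filters, tools or a replicate block (blue ticks). CD274, PDCD1LG2 and PLGRKT stay above 0 and ERMP1 below 0 at every point, while RIC1, CDC37L1 and AK3 have points on both sides.

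Within 500 kb on either side of the 8 genes (chr9:4179559-6379537) the deposited annotation lists 59 genes, 51 besides these 8. Of the 51, 38 had 0 counts in all 6 libraries, and the 8 genes held 4927 of the 5607 counts of the interval over all libraries (87.9%). CD274 and PDCD1LG2 together made up 13.5%, 12.3% and 7.00% of interval counts in the untreated and 34.5%, 38.5% and 36.6% in the treated replicates. Their mean share was 10.9% ± 3.44 untreated and 36.5% ± 2.03 treated (SD, n = 3 each).

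Of the 51, 3 were tested and 0 passed the threshold by edgeR's quasi-likelihood test, DESeq2 or limma voom. Among all tested genes 5.58% were higher and 2.55% lower by edgeR, so 0 of 3 says little. GLIS3 alone had an unadjusted edgeR p under 0.05. GLIS3, a zinc finger transcription factor, was at 16.1 ± 4.50 CPM untreated and 8.09 ± 1.39 CPM treated (SD, n = 3 each) without overlap; on the log2 scale the fitted difference was -0.99 (SE 0.30; adjusted p = 0.0858 by edgeR). For SLC1A1, a glutamate transporter, the log2 difference was -0.93 (SE 0.60; adjusted p = 0.469 by edgeR), and for PLPP6, a lipid phosphatase, -0.35 (SE 0.45; adjusted p = 0.781 by edgeR). Without untreated replicate 3 these were -0.04 and 0.05, so both rested on that library, while GLIS3 was at -0.78. Both had overlapping groups.

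JAK2, the IFNγ receptor kinase, lies between RCL1 and PLGRKT, and starts 466.1 kb from the start of CD274. Its counts of 1, 3 and 3 untreated against 2, 20 and 15 treated were too few for the main filter. Treated replicate 1 lay within the untreated range and the other two above it, so that the mean level of 0.570 ± 0.272 CPM untreated and 3.11 ± 2.20 CPM treated (SD, n = 3 each) carried a wide spread. When every gene with a count was tested, its log2 fold change was 2.42 (SE 0.68, edgeR adjusted p = 0.00725). Where a smaller set of libraries let it through the filter, the edgeR adjusted p was 0.0258 without treated replicate 1, and 0.206, 0.248 and 0.101 without untreated replicates 1, 2 and 3. RANBP6, an importin-like gene, was at 1.96 CPM untreated and 1.85 CPM treated. ENSG00000286162, a minus-strand gene that spans PDCD1LG2 and the end of CD274, had 4, 3 and 7 counts untreated and 6, 4 and 4 treated, and no exon base of either ligand gene is shared with another gene on either strand.

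Genes that act on PD-L1 were taken from lists written with earlier results of these data known, so their directions are not independent evidence. The first held 15 genes of cytokine signalling and of transcription at CD274, of which 14 were tested, 6 rose and 0 fell (edgeR's quasi-likelihood test; 0 fell at an unadjusted p under 0.05, by DESeq2 or by limma voom), beside 5.58% higher and 2.55% lower among all tested genes. The median log2 fold change of this list was 0.62. IRF1 rose from 32.1, 40.4 and 28.9 CPM to 1505, 1247 and 1224 CPM, by 5.29 on the log2 scale (SE 0.22; adjusted p = 3.34e-06 by edgeR).

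IRF2, a relative of IRF1 that often opposes it, rose from 9.58 ± 1.16 to 45.7 ± 3.29 CPM (SD, n = 3 each; adjusted p = 0.00024 by edgeR). STAT3 rose by 1.17 on the log2 scale (SE 0.18, edgeR adjusted p = 0.00417). On the TNF side, RELA, the p65 subunit of NF-kappaB, rose by 1.63 (SE 0.24, edgeR adjusted p = 0.00301) and the receptor gene TNFRSF1A by 1.03 (SE 0.18, edgeR adjusted p = 0.008). NFKB1 had a log2 fold change of 0.64 with an edgeR adjusted p of 0.0682. IFNGR1, IFNGR2 and JAK1 were at 0.27, 0.61 and -0.19, with edgeR adjusted p of 0.838, 0.142 and 0.862. Without untreated replicate 3, IFNGR1 was at 0.82 and JAK1 turned to 0.36, and neither passed the threshold. The hypoxia-inducible factor genes HIF1A (0.50) and EPAS1 (-0.29) did not pass the threshold either, and EPAS1 turned to 0.35 without that library.

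The second list held 14 genes that set the stability, glycosylation or trafficking of the PD-L1 protein. Of 13 tested, 0 rose (also 0 at an unadjusted edgeR p under 0.05, by DESeq2 or by limma voom) and 2 fell, beside the same 5.58% and 2.55% of all tested genes, with a median log2 fold change of -0.15. COPS5, a deubiquitinase, was not tested. CMTM4, a membrane protein that protects PD-L1 from degradation, had 15.6, 12.6 and 21.0 CPM untreated and 4.03, 4.72 and 3.69 CPM treated. It fell by 1.98 on the log2 scale (SE 0.31, edgeR adjusted p = 0.00436). Its better known relative CMTM6 was at 16.2 ± 5.85 and 22.0 ± 8.07 CPM (SD, n = 3 each; log2 fold change 0.44, edgeR adjusted p = 0.605), and at 0.76 in log2 without untreated replicate 3. HIP1R, which carries PD-L1 to the lysosome, fell from 97.3 ± 22.9 to 47.8 ± 11.2 CPM (SD, n = 3 each). The fitted log2 difference was -1.03 (adjusted p = 0.0327 by edgeR). That call was lost without untreated replicate 2, treated replicate 2 or treated replicate 3 (edgeR adjusted p 0.0825, 0.136 and 0.149). Without untreated replicate 3, 4 genes of the list were lower, among them HIP1R, CMTM4 and the deubiquitinase gene USP22 (edgeR adjusted p 0.0286, 0.00363 and 0.0272). With all 6 libraries USP22 was at a log2 difference of -0.90 (adjusted p = 0.0606 by edgeR). It passed the threshold in 6 of 12 alternatives, DESeq2 among them. Over all 12, by edgeR, DESeq2 or limma voom, its adjusted p ran from 0.000952 to 0.216.

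**Figure D5:**
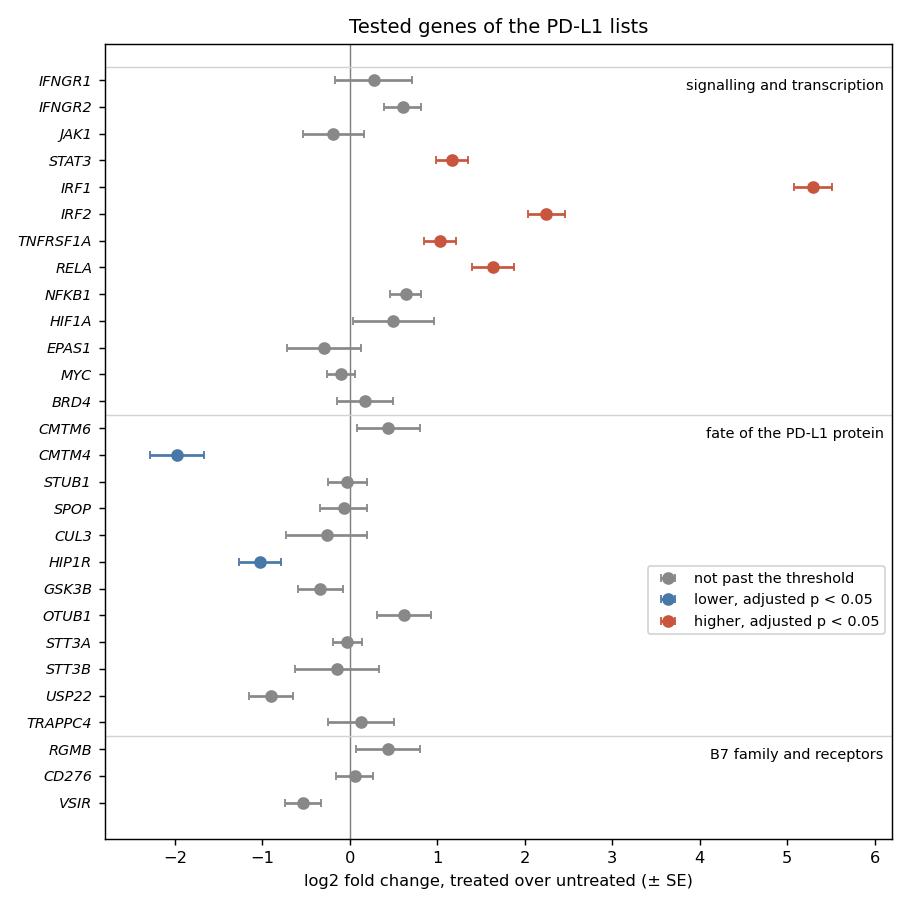
Log2 fold change of treated over untreated libraries (x axis, bars ± SE) for 28 of the 30 tested genes of the 3 lists (y axis), coloured by whether edgeR's adjusted p passed 0.05. The 5 red points, led by IRF1 at 5.29, belong to signalling and transcription, and the 2 blue points, CMTM4 at -1.98 and HIP1R at -1.03, to the fate of the protein.

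The third list held 12 genes of the B7 family and of receptors for these ligands. PDCD1 (the PD-1 receptor), CD80, CD86, CD28, CTLA4, ICOSLG and HHLA2 were at 0 counts in all 6 libraries. Of the 3 tested, 0 passed the threshold by edgeR's quasi-likelihood test, DESeq2 or limma voom. The shares over all tested genes were 5.58% higher and 2.55% lower by edgeR, so 0 of 3 says little. VSIR, the inhibitory ligand VISTA, alone had an unadjusted edgeR p under 0.05. CD276 (B7-H3) was at 76.8 ± 12.5 CPM untreated and 80.1 ± 14.5 CPM treated (SD, n = 3 each; log2 fold change 0.06, edgeR adjusted p = 0.934). Per kb of exon, CD276 had 14.0 CPM untreated and 14.6 treated, so it lay above CD274 in untreated cells (3.69 CPM per kb), and CD274 in treated cells (17.2 CPM per kb) was within 1 SD of it. VSIR had a log2 fold change of -0.54 (edgeR adjusted p = 0.177) and RGMB, a binding partner of PD-L2, 0.44 (edgeR adjusted p = 0.611). Without untreated replicate 3, CD276 was at -0.07 and RGMB at 0.18.

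The genes whose profile over the 6 libraries was most like that of each ligand gene were found by the root mean square difference of log2 CPM, each gene centred on its own mean, among the 6739 tested genes that averaged 10 CPM or more. For CD274 these were HLA-K (0.146), INPP1 (0.161), IL6 (0.202), VEGFC (0.233) and RNF114 (0.246). HLA-K is a pseudogene with near-identical HLA copies, so its counts are uncertain. INPP1, an inositol phosphatase gene, was at 28.7, 26.5 and 17.9 CPM in the untreated and 94.4, 109.6 and 129.2 CPM in the treated replicates. Like CD274, INPP1 was lowest among untreated libraries in replicate 3, as were 41.3% of tested genes. Its highest treated level was in replicate 3, and that of CD274 in replicate 2. For PDCD1LG2 they were HLA-B (0.277), ACSL5 (0.286), IL32 (0.287), PARP12 (0.290) and RNF213 (0.303), where HLA-B also shares sequence with its paralogs. ACSL5, a fatty acid activating enzyme, was at 11.2, 13.6 and 15.1 CPM untreated and 100.1, 96.3 and 98.0 CPM treated. CD274 and PDCD1LG2 differed from each other by 0.533 on this measure. With 6 libraries in 2 groups, the measure largely reflects the difference between groups.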

How the data were processed

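Direct RNA nanopore libraries were made from 3 untreated and 3 IFNγ plus TNF treated RCC4 cultures, grouped by sample title. The files deposited by the authors hold raw read counts for each gene, obtained with featureCounts 2.0.1 in long-read, strand-specific mode on Ensembl release 105, per the file headers (version 2.0.0 in the submitters' processing notes, which also name minimap2 2.24 and SAMtools 1.16). Reads had a quality above 7 and were sequenced for 72 h, per the series design text. Alignment names in the file headers carry the word dmso for all 6 libraries, and the labels name no vehicle.

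Counts were joined over 61541 genes, of which 61369 were named from a gene name table. All tested genes were fitted at once with edgeR 4.0.16 in R 4.3.3 (filterByExpr, TMM, quasi-likelihood F test, Benjamini-Hochberg threshold 0.05, group as the sole term). CPM uses full library totals times the TMM factor, and the standard error (SE) is the absolute log2 fold change over the square root of F. Log2 CPM uses a prior count of 2. The scripts were tested on simulated data, with a required recovery that was lowered after the first run fell short of it. Chi-square tests of replicate pairs exceeded sampling noise in both groups (genes with at least 10 counts in a pair), so each replicate counted as 1 sample. Per degree of freedom, untreated replicates 1 and 2 gave 3.48, and the pairs with untreated replicate 3 gave 24.7 and 21.5. The treated pairs gave 10.3 to 15.9.

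The 8 genes and all lists were chosen with earlier results of these data known. Genes were named by a rule: the 8 genes, JAK2, interval genes that averaged 1 CPM or more, list genes past the threshold, and the 5 nearest profiles per ligand gene. Others named were chosen after their values were seen. A few genes of the lists enter the counts without being named. Alternatives tried were DESeq2 size factors, library totals alone, no filter, DESeq2 1.42.0, limma 3.58.1 voom, the replicate number as a block, leaving out each library, promoter windows limited to bases before the start, and CPM with no division by length.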

Additional observations from a re-analysis of the deposited data

How the results depend on the processing

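Over all genes, 562 higher and 257 lower calls became 849 and 479 when every gene with a count was tested, and 485 and 364 with library totals alone, which shifted the median over tested genes from -0.03 to -0.13 (log2). Leaving out 1 library gave 358 to 733 higher and 96 to 445 lower calls, 1 to 4 lower genes in the list on the fate of the protein, and 0 to 1 higher gene in the interval (JAK2, without treated replicate 1). Testing every gene also gave 1 higher interval gene, JAK2. Deviations of same-numbered libraries correlated at 0.65, -0.0037 and 0.37 over 10067 genes, and not every library correlated best with its own number. Deviations within a group of 3 are not independent, so this does not decide whether the replicate numbers pair the libraries. With the replicate block 907 genes were higher and 606 lower, and 1 interval gene, GLIS3, was lower (edgeR adjusted p = 0.0261), and NFKB1 passed as higher (edgeR adjusted p = 0.0323). The causes were not tested. The 6 signalling genes that rose and CMTM4 passed in 12 of 12 alternatives. HIP1R (-1.03) missed the threshold at -1.10, -0.93 and -0.88 without untreated replicate 2, treated replicate 2 and treated replicate 3. Leave-one-out log2 fold changes ran from 1.98 to 2.43 for CD274, 3.12 to 3.46 for PDCD1LG2, 0.67 to 0.95 for PLGRKT and -1.25 to -0.67 for ERMP1. Limited to bases before the start, 3.02% of windows held the ISRE-like pattern. Without division by length, PDCD1LG2 had rank 7 untreated and rank 3 treated. Low counts limit the precision of CDC37L1, RIC1, ERMP1 and JAK2, and of PDCD1LG2 in untreated libraries.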
